A study of Homo sapiens with 10 samples.

Results

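Classical cadherins are adhesion proteins that span the cell membrane and bind cadherins of neighbouring cells through their extracellular repeats. Their tails bind catenins, which tie the junction to actin. Here 5 ARID1A knockout and 5 control ATAC-seq libraries of MDA-MB-231, an established human triple-negative breast cancer line, are represented by 1 shared list of 161934 peaks of accessible chromatin. ARID1A is a subunit of the SWI/SNF chromatin remodelling complex. The genotype is the one difference that the labels give between the groups, and they do not say whether the knockout is 1 clone. The genes described are 3 epithelial ones (CDH1, CDH3 and EPCAM), 4 mesenchymal ones (CDH2, CDH6, CDH11 and VIM) and the endothelial CDH5. Peaks were taken where the list names the gene as nearest, or where the peak overlaps the gene's span in hg38. These rules gave 65 of the 161934 peaks. The list has no value per library and no peak height, so no difference between knockout and control was measured, and nothing below has replicate error.

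E-cadherin (CDH1), P-cadherin (CDH3) and EPCAM, an adhesion protein outside the cadherin family, mark epithelial cells. N-cadherin (CDH2), K-cadherin (CDH6), OB-cadherin (CDH11) and vimentin (VIM), an intermediate filament protein, are grouped here as mesenchymal. They are not limited to mesenchymal cells. VE-cadherin (CDH5) joins endothelial cells. In the epithelial to mesenchymal transition, cells lower E-cadherin and raise N-cadherin and vimentin. MDA-MB-231 cells are known to make vimentin and little or no E-cadherin. Expression was not measured here.

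The outermost annotated start means here the 5' boundary of the RefSeq gene. Listed transcripts of CDH3, EPCAM, CDH1, CDH2, CDH5 and CDH11 reach farther upstream than that boundary. At CDH2, the peak 6342 bases upstream of the boundary lay 6026 bases upstream of a listed start. A peak within 1000 bases of the RefSeq boundary is called a start peak below. Start peaks were present at CDH3, EPCAM, CDH6, CDH11 and VIM, and absent at CDH1, CDH2 and CDH5. The list thus held a start peak for 2 of 3 epithelial genes, 3 of 4 mesenchymal genes and 0 of 1 endothelial gene. Among the 19550 protein-coding genes with a determined state, 71.6% carried one, so 5 of 8 (62.5%) is near the background and sets these genes apart in neither direction. The named pair of the cadherin switch, CDH1 and CDH2, shared the absence.

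Promoter sequences of 2 of the 8 genes, VIM and CDH2, were matched by symbol in the RefSeq promoter table (GRCh38.p14). CDH1, CDH3, CDH5, CDH6, CDH11 and EPCAM had no match. They are shown because VIM is a mesenchymal gene with a start peak and CDH2 one without. Each runs 5' to 3' on the gene's strand, from 250 bases before the start to 50 after it. Capitals mark matches, on either strand, to the E-box (CAGGTG), to the AP-1 motif (TGANTCA), to the GC box (GGGCGG) and to the TATA box (TATAAA). No matches overlapped each other.
VIM, chr10:17227991-17228290, plus strand: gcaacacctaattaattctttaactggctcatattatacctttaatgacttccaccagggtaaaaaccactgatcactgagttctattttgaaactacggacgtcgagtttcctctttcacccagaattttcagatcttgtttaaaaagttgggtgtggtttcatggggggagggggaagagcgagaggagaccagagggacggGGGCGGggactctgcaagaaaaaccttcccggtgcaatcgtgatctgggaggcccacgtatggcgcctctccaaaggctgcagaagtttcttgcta
CDH2 outermost start, chr18:28177081-28177380, minus strand: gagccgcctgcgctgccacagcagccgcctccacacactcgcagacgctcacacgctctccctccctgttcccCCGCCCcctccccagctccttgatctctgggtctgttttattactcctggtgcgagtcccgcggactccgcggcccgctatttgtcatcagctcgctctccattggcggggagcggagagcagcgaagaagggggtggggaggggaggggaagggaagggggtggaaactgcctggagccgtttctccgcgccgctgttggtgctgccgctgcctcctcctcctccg
CDH2 internal start, chr18:28036592-28036891, minus strand: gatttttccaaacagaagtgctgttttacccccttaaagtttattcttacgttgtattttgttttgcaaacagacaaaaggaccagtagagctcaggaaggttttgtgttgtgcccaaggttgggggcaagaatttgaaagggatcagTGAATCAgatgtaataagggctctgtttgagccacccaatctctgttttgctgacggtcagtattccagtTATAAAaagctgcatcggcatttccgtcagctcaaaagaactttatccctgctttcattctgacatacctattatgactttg

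In the VIM window, the start peak covered the last 110 bases, from position 191 to position 300. The GC box GGGCGG at positions 205 to 210 lay inside that covered stretch. No peak touched either CDH2 window. The outermost CDH2 promoter held a GC box on the reverse strand, CCGCCC at positions 74 to 79. It was GC-rich, with 67% G or C and 23 CpG pairs. The VIM window had 48% and 10 CpG pairs, and the median promoter of protein-coding genes had 62.3% and 21. The internal CDH2 promoter had 40.7% and 4 CpG pairs, an AP-1 match TGAATCA at positions 149 to 155 and a TATA box at positions 219 to 224. Of 22156 promoters of protein-coding genes in the table, 56.3% held the GC box, 6.16% the AP-1 motif, 9.46% the TATA box and 20.0% the E-box letters. The E-box was found in none of the 3 windows.

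CDH3, the gene of P-cadherin (ENSG00000062038, chromosome 16, 68645310 to 68733771, plus strand), had a start peak of 1387 bases at 68644842 to 68646228. Of the 20312 peaks that covered a listed transcript start, 29.6% were at least as long, against a median of 1106 bases. A further peak of 991 bases at 68635689 to 68636679 covered another listed start, 8631 bases upstream of the gene's RefSeq boundary. P-cadherin thus had a peak at its RefSeq start and another at a listed start upstream of it.

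EPCAM (ENSG00000119888, chromosome 2, 47369311 to 47387020, plus strand) had 1 peak, its start peak of 1031 bases at 47369144 to 47370174. It ran from 167 bases before the start to 863 bases into the gene. The remaining 16846 bases of the gene, 95.1% of its length, held no peak. Peaks of 1081 and 640 bases, annotated to intron 1 of a longer EPCAM transcript, lay 14216 and 13171 bases upstream of the start. They fall outside the rule, as does a peak of 833 bases that begins 1028 bases beyond the gene's end. The start of that longer transcript was not examined.

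CDH1, the gene of E-cadherin (ENSG00000039068, chromosome 16, 68737292 to 68835537, plus strand), had no peak near its outermost start. The nearest peaks lay 4494 bases upstream and 4336 bases downstream, and the stretch between them, 68732799 to 68741627, was 8829 bases long. Of protein-coding genes with known strand, 14.9% had their nearest peak at least 4336 bases away. The downstream neighbour, of 714 bases at 68741628 to 68742341, is annotated to ENSG00000200558, a short gene inside CDH1. The upstream neighbour, of 1075 bases at 68731724 to 68732798, lies within the RefSeq span of CDH3, and the list gives CDH1 as its nearest gene. It is the 1 peak counted for both genes.

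CDH1 had peaks at starts further inside the gene. A peak of 926 bases at 68823139 to 68824064 covered the start of transcript ENST00000562118, 85847 bases into the gene. Another of 684 bases at 68800239 to 68800922 ended 818 bases upstream of the start of ENST00000561751. Of peaks covering a start, 63.9% were at least as long as the one of 926 bases. A peak of 856 bases at 68760576 to 68761431, 23284 bases into the gene, lay 1863 bases upstream of the start of ENST00000562836, outside the window of 1000 bases.

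VIM, the vimentin gene (ENSG00000026025, chromosome 10, 17228241 to 17237593, plus strand), had the longest start peak of the 8 genes. It measured 1551 bases at 17228181 to 17229731, and 20.2% of peaks covering a start were at least as long. It began 60 bases before the RefSeq start and reached 1490 bases into the gene, so that nearly all of it lay downstream of the start. The other peaks in the gene were nearest to starts of other genes. One of 723 bases at 17229932 to 17230654 covered a start of ENSG00000229124, whose listed span is that of VIM-AS1, the antisense RNA. One of 154 bases at 17235265 to 17235418 lay 432 bases from the start of ENSG00000234961. Outside the rule, a peak of 326 bases ended 1006 bases upstream of VIM and one of 1394 bases began 458 bases beyond its end.

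CDH11, the OB-cadherin gene (ENSG00000140937, chromosome 16, 64943753 to 65123744, minus strand), had the most peaks at its own starts. Its start peak measured 1173 bases at 65122997 to 65124169. Peaks of 161 bases (65121887 to 65122047) and 831 bases (65120770 to 65121600) lay at 2 starts just downstream. Peaks of 349 bases (65071832 to 65072180) and 539 bases (65070743 to 65071281) lay at the start of the shorter transcript ENST00000562882, 51564 and 52463 bases into the gene. The peak of 161 bases was short for one over a start, with 99.9% of such peaks at least as long. Only 1 of the 6 CDH11 peaks was away from a start, in intron 1.

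CDH6, the K-cadherin gene (ENSG00000113361, chromosome 5, 31193686 to 31329146, plus strand), had 2 peaks within the window. The nearer measured 355 bases at 31193741 to 31194095, began 55 bases after the RefSeq start and covered a listed start. Of peaks covering a start, 94.3% were at least as long. The longer, of 1003 bases at 31194620 to 31195622, began 934 bases into the gene, just inside the limit of 1000 bases. A peak of 197 bases lay 2735 bases in. The CDH6 start region thus held 3 separate peaks, and the longest of them did not cover the start.

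CDH2, the N-cadherin gene (ENSG00000170558, chromosome 18, 27932879 to 28177130, minus strand), was the member farthest from any start peak. The nearest peak lay 6342 bases upstream and the nearest in the gene 29283 bases downstream. The stretch between them, 28147848 to 28183471, was 35624 bases long. Of genes with known strand, 11.9% had their nearest peak at least 6342 bases away. At the internal starts the closest peak, 476 bases at 28039063 to 28039538, lay 2478 bases upstream of the start of ENST00000399380. N-cadherin was the 1 gene of the 8 with no peak within 1000 bases of any listed start. Of all protein-coding genes, 77.5% had such a peak, as did 7 of these 8. Internal starts are known here only for transcripts nearest to some peak, so both counts lean towards finding one.

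CDH5, the VE-cadherin gene (ENSG00000179776, chromosome 16, 66366691 to 66404784, plus strand), missed the window narrowly. Its nearest peak, 1635 bases at 66367881 to 66369515, began 1190 bases into the gene, just outside the limit. A peak of 729 bases at 66376570 to 66377298 covered an internal start, and one of 1701 bases at 66381979 to 66383679, the longest of all 65, lay 2754 bases past another. Upstream, 5 intergenic peaks of 260 to 1489 bases lay 6391 to 30542 bases from the start. With a window of 3000 bases CDH5 had a start peak, which made 6 of 8 genes against 80.1% of all protein-coding genes, and CDH1 and CDH2 still had none. With 500 bases the count was 5 of 8 against 67.9%, and with peaks of at least the list's median length it was 5 of 8 against 65.9%.

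**Figure D1:**
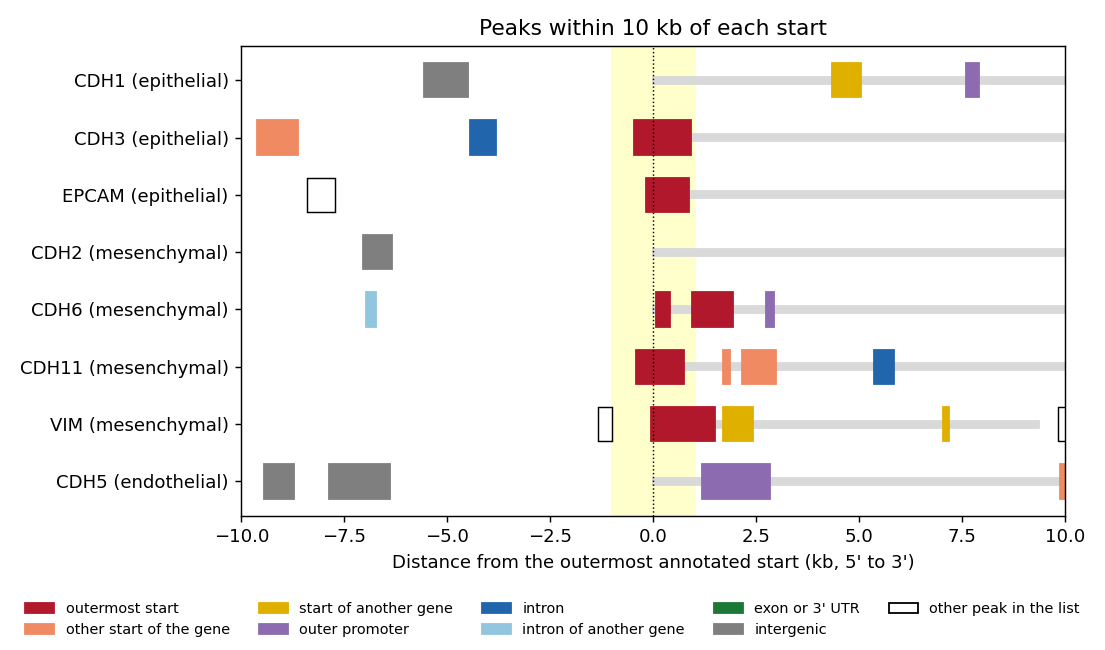
Peaks within 10 kb of the outermost annotated start of each gene, drawn to scale, with the horizontal axis in kb from the start in the 5' to 3' direction and the grey bar marking the gene. The yellow band is the window of 1000 bases. Filled boxes are peaks taken by the rule, coloured by position, and open boxes are other peaks in the list. CDH3, EPCAM, CDH6, CDH11 and VIM have a filled box in the band, and CDH1, CDH2 and CDH5 have none.

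By the list's own classes, 37.9% of the peaks counted for the 8 genes lay in introns, against 34.1% of the whole list, so the intron share is near the background. Peaks in an intron of the gene itself numbered 9 for the epithelial genes and 11 for the mesenchymal genes. For the endothelial gene the number was 0. They came from 2 of 3 epithelial genes (CDH1 and CDH3) and 3 of 4 mesenchymal genes (CDH2, CDH6 and CDH11). EPCAM and VIM, the shortest genes, had none.

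The type I cadherins CDH1, CDH2 and CDH3 shared peaks in intron 2, which is listed as intron 2 of 15 in all 3 genes. CDH1 had 3 there, of 341 to 1411 bases, between 39598 and 56262 bases from the start. CDH3 also had 3, of 474 to 1177 bases, between 12984 and 23440 bases from the start. CDH2 had 4, of 298 to 1010 bases, between 48453 and 101853 bases from the start. The longest intron peak of CDH1, 1411 bases at 68789620 to 68791030, was longer than any start peak of the epithelial genes. The intron 2 peaks were thus spread far from the starts, and CDH1 and CDH2 held them without a start peak. Such peaks are not particular to type I genes, since the type II gene CDH6 also had 2 in its intron 2. Neither the length of these introns nor the share of all genes with peaks in intron 2 was measured.

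Beyond intron 2, CDH2 had 2 peaks in intron 6, 1 in intron 7 and a peak of 1203 bases at 28009726 to 28010928 annotated to exon 5. CDH3 had 3 peaks in introns of short transcripts and 1 of 299 bases in the 3' UTR. CDH6 had 1 peak in intron 1 and 2 in intron 2, of 237 to 1072 bases. Another 5 peaks given to CDH6 lie in intron 1 of ENSG00000254138, 6719 to 59819 bases upstream of CDH6.

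**Figure D2:**
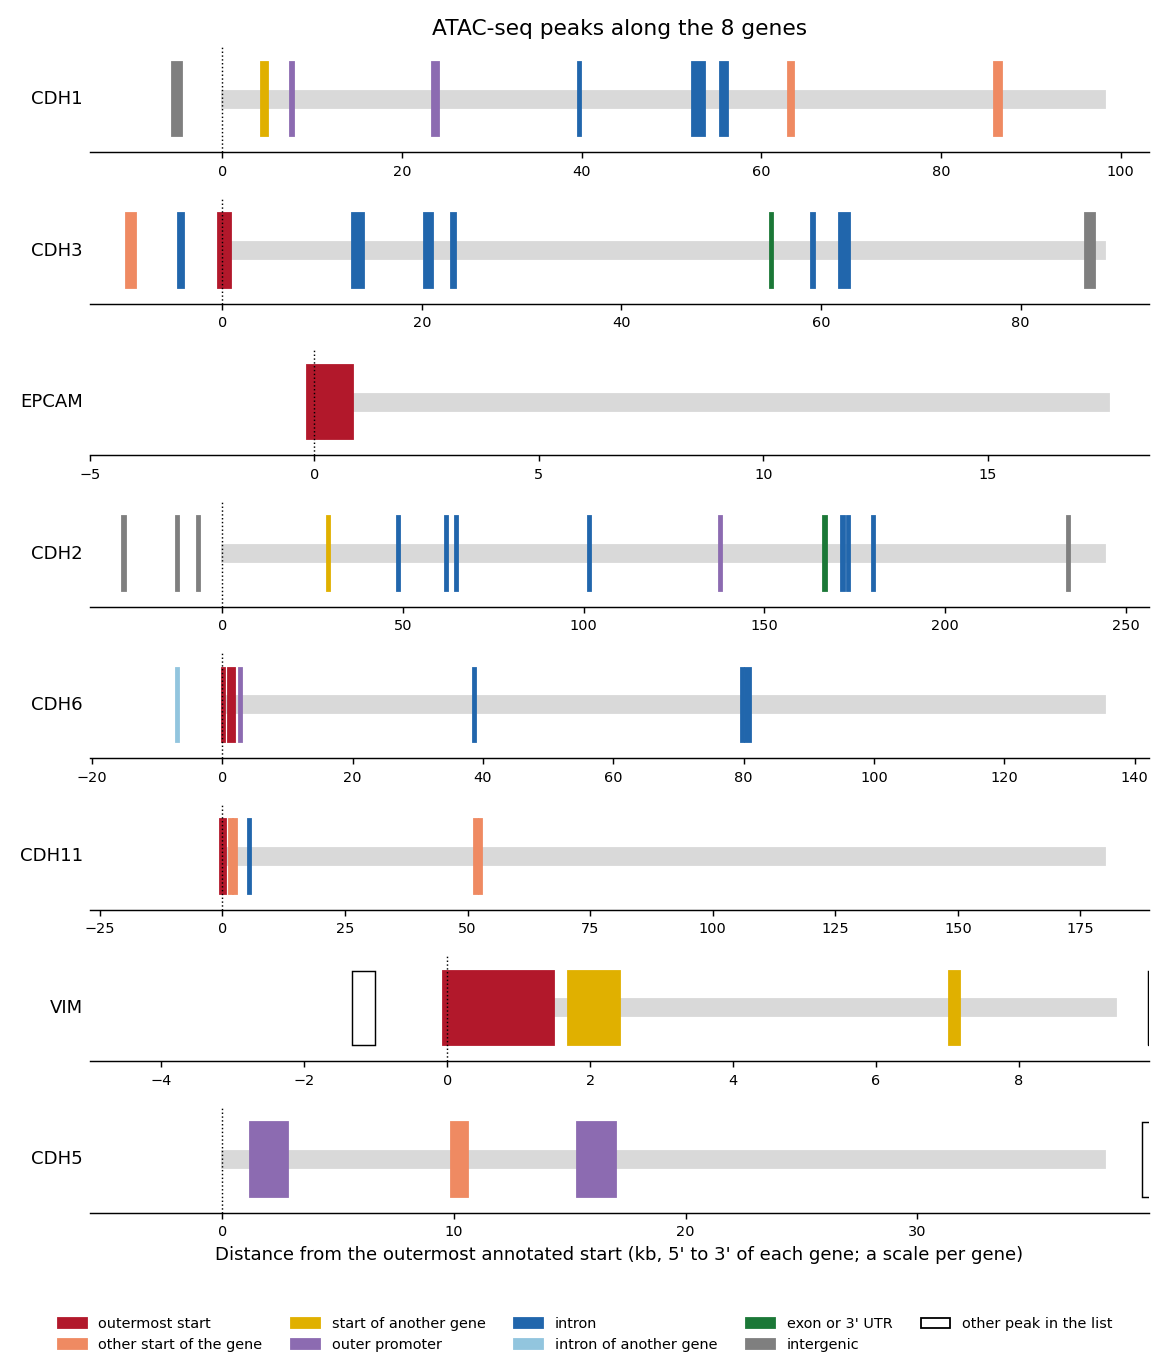
Peaks along the 8 genes, with the horizontal axis in kb from the outermost annotated start in the 5' to 3' direction and a separate scale for each gene. The grey bar is the gene, filled boxes are peaks taken by the rule, widened where needed to be visible, and open boxes are other peaks in the list; peaks farther upstream or downstream are not drawn. In CDH11 no peak lies in the last 127 kb, and in CDH2 peaks are spread along the gene but not at its start.

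Counts by position varied from gene to gene within both groups. The peak shared by CDH1 and CDH3 was counted for each of them. The epithelial genes held 20 peaks and the mesenchymal genes 38, counting every peak the rule gave to a gene. Of these the list annotates 8 of 20 (40%, exact 95% interval 19.1 to 63.9%) and 13 of 38 (34.2%, 19.6 to 51.4%) as promoter, which it defines as within 3000 bases of any gene's start. In the whole list that share was 30.4%. The intervals overlap, cover counting error over peaks only, and peaks of 1 gene are not replicates. Peaks at another start of the same gene numbered 3 for the epithelial genes (CDH1 and CDH3) and 4 for the mesenchymal genes, all 4 at CDH11.

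**Figure D3:**
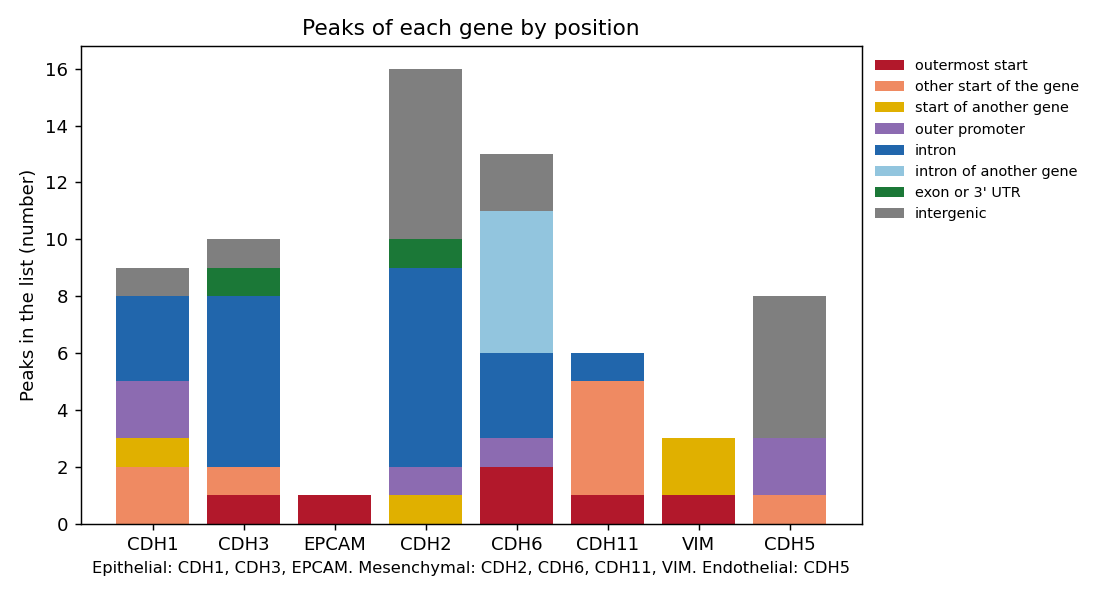
Number of peaks taken by the rule for each gene (vertical axis), stacked by position, with the epithelial genes first, then the mesenchymal genes and CDH5. CDH2 has 16 peaks and CDH6 13, of which 6 and 2 are intergenic, while EPCAM has 1 and VIM 3.

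Peaks of the epithelial genes were longer than those of the mesenchymal genes in the median, 897 bases (range 282 to 1411) against 478 bases (range 154 to 1551). In the epithelial median, the peak shared by CDH1 and CDH3 was counted for each of them. The median over the whole list was 539 bases. By gene, the medians were 856 bases at CDH1, 976 bases at CDH3 and 1031 bases for the 1 peak of EPCAM. They were 565 bases at CDH2, 355 bases at CDH6, 514 bases at CDH11 and 723 bases at VIM. CDH5 stood at 1074.5 bases. By these counts each epithelial gene was above each mesenchymal gene, and the ranges of single peaks overlapped. The VIM median counts 2 peaks that were nearest to starts of other genes. By gene identifier VIM had 1 peak, of 1551 bases, longer than each epithelial median, so the order by gene depends on the rule. Intron peaks showed the same order of the groups, with medians of 868 bases in the epithelial and 492 bases in the mesenchymal genes. No test was made, since the genes were chosen with results of these data known and peaks of 1 gene are not independent.

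Set against genes of like length, the peak counts inside 7 of the 8 genes lay within the interquartile range of their class, and that of VIM lay above it. CDH1 and CDH3 held 8 peaks each in their spans, and 27.2% of the 2907 genes from 50000 to under 100000 bases held as many or more (median 5). CDH2 held 11, below the median of 17 for genes of 200000 bases or more, of which 71.6% held as many. CDH6 and CDH11 held 6 each, against a median of 8 in their class from 100000 to under 200000 bases, where 69.8% held as many. EPCAM held 1, the median of its class, and CDH5 held 3, also the median of its class. VIM held 3, and 14.3% of the 8983 genes under 20000 bases held as many.

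**Figure D4:**
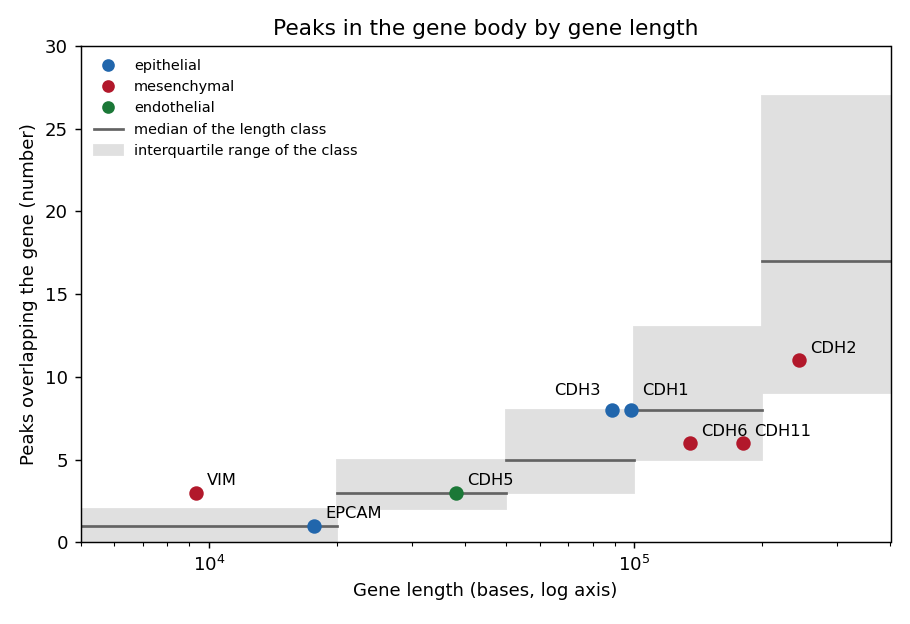
Peaks overlapping each gene (vertical axis) against gene length in bases (horizontal log axis), with points for the 8 genes, and lines and grey boxes for the median and interquartile range of all protein-coding genes in 5 length classes. CDH1 and CDH3 lie above the median of their class, CDH2, CDH6 and CDH11 below it, and VIM above the interquartile range of its class.

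Per length, the epithelial genes held 0.814 (CDH1), 0.904 (CDH3) and 0.565 (EPCAM) peaks per 10000 bases. The mesenchymal genes held 0.450 (CDH2), 0.443 (CDH6), 0.333 (CDH11) and 3.21 (VIM). VIM stood apart within its group, as a short gene whose peaks covered 25.3% of its bases. Both VIM values include 2 peaks nearest to starts of other genes. In the length class of VIM, 16.5% of genes were at least as dense and 11.8% at least as covered. Peaks covered 6.24% of CDH1, 7.13% of CDH3 and 4.88% of EPCAM, and 2.97% of CDH2, 2.38% of CDH6 and 1.73% of CDH11. The 3 mesenchymal cadherins were thus below all 3 epithelial genes on both raw measures, and they are also the longest genes of the 8. Against genes of like length, this order did not hold for EPCAM. In its length class 71.4% of genes were at least as dense, against 52.4% for CDH2, 66.8% for CDH6 and 76.2% for CDH11. The shares at least as covered were 63.4% for EPCAM, 46.3% for CDH2, 69.7% for CDH6 and 80.7% for CDH11. CDH1 and CDH3 still ranked above the 3 mesenchymal cadherins on both. Longer genes held fewer peaks per length in the whole list, with a median of 0.472 per 10000 bases in genes of 200000 bases or more and 1.46 in genes under 20000 bases. Copy number, which also moves the number of peaks called, was not measured.

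CDH11 had the longest stretch without a peak, 126990 bases from 64943753 to 65070742, which is 70.6% of the gene and holds its 3' part. The longest such stretches were 54245 bases in CDH6 and 53126 bases in CDH2. In the epithelial cadherins they were 22216 bases in CDH1 and 31485 bases in CDH3. CDH3 and CDH1 lie in tandem, 3520 bases apart, and together held 16 peaks over their spans.

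Among other cadherins, listed from the family and not by their peaks, 7 of 16 had a start peak, against 71.6% of all genes. The count depends on the window. Within 3000 bases it was 11 of 16, against 80.1% of all genes. Within 1000 bases of any listed start it was 12 of 16, against 77.5%. Both other type I genes had a start peak, CDH4 (512 bases) and CDH15, the M-cadherin of muscle (1201 bases). Of the type II genes 4 of 10 had one (CDH10, CDH12, CDH22 and CDH24). Those without were CDH7, CDH8, CDH9, CDH18, CDH19 and CDH20. CDH9 was farthest from a peak, at 58276 bases, and CDH19 held none in its body. CDH6 and CDH11, the type II members described here, both had one. Of the atypical cadherins 1 of 4 had one, CDH16, while CDH13, CDH17 and CDH26 had their nearest peak between 2083 and 2567 bases away. CDH13, the membrane-anchored T-cadherin, held 99 peaks over 1173672 bases, or 0.844 per 10000 bases, and 19.1% of genes in its length class were as dense. CDH4 held 79 peaks, or 1.15 per 10000 bases.

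The catenins, which link cadherin tails to the cytoskeleton, had a start peak at 6 of 7 genes, which is near the 71.6% of all protein-coding genes. The peak measured 2652 bases at CTNNA1 (alpha-catenin), 1676 bases at CTNNB1 (beta-catenin), 1154 bases at JUP (plakoglobin) and 436 bases at CTNND1 (p120-catenin). It measured 1884 bases at CTNNA3 (alpha-T-catenin) and 873 bases at CTNND2 (delta-catenin), where it lay 146 bases from the start. CTNNA2 (alpha-N-catenin) had none at its outermost start, with its nearest peak 15171 bases from that start. It did have a peak within 1000 bases of another listed start.

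The list did not allow a check of the line's label. All 4 of EGFR, CD44, AXL and FOSL1, which are known to be high in this line, had a start peak, but so did 71.6% of all protein-coding genes. ERBB2 and PGR also had one, and ESR1, the estrogen receptor gene, had none at its outermost start. A start peak does not measure expression, so these states say nothing of receptor status.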

How the data were processed

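ATAC-seq cuts accessible DNA with the Tn5 transposase. Per the submitters' processing notes, the authors aligned reads with Bowtie2 2.3.5.1 and called peaks with MACS2 2.2.6 on hg38. The sources used here do not give the peak threshold, the annotation release, or how duplicates, the Tn5 shift and merging across libraries were handled. These choices set which peaks exist and where they end. The deposited list has 17 columns of positions and annotation and 0 columns with a value per library. Depth is therefore unknown, and the planned test between genotypes was not run.

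Gene spans came from a RefSeq table of GRCh38.p14 (19974 protein-coding genes on chromosomes 1 to 22 and X). An Ensembl gene was paired with a RefSeq gene where the overlap was at least 0.5 of their union. The pairing was 0.563 for CDH3 and over 0.92 for the other members. Strand came from RefSeq promoters or, without one, from the paired transcripts. Where both sources had the gene (11541 genes), they named 1 strand for 11497. Genes of unknown strand counted only where both ends had the same state. Other starts are those of transcripts that the list names as nearest to a peak, so starts far from any peak tend to be missing. Counts at any listed start therefore lean towards finding a peak, for the members and for all genes. Each peak got 1 position, in this order: outermost start, other start of the gene, start of another gene (each within 1000 bases), outer promoter, then the list's class. Lookups matched brute force on 1000 of 1000 simulated intervals. Members and gene lists were chosen with earlier results of these data known. All 8 members are named, and other genes where a start peak is absent or the body holds most peaks. Of the genes planned for the lists, 1 was left out of them and is not reported here. Examples of other genes with a start peak were picked with their values in view. Scripts ran under Python 3.11.15 with numpy 2.4.6, pandas 2.3.3, scipy 1.17.1 and matplotlib 3.10.9.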

Additional observations from a re-analysis of the deposited data

How the results depend on the processing

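No paired analysis was possible because libraries have no values of their own here. The planned change of test, size factors, filter and replicate block, and leaving out each replicate, could not be run either, and what depth limits is unknown. Start peaks were found at 5 of 8 genes as reported and with a window of 500 bases, and also at 5 with peaks of 539 bases or longer only, at 6 with 3000 bases (CDH5 added; 80.1% of all genes) and at 7 at any listed start (CDH1 and CDH5 added; 77.5% of all genes). Peaks overlapping the 8 spans numbered 46 as reported, 54 by gene identifier, 50 with 3000 bases added on either side and 46 with at least 50% of the peak inside. With peaks of 539 bases or longer the number was 28, since that choice drops the shorter peaks. VIM, with 3 peaks as reported, had 1 by gene identifier and 5 with 3000 bases added, EPCAM had 2 with 3000 bases added against 1, CDH5 had 8 by gene identifier against 3, and CDH6 had 10 by gene identifier against 6. Longer peaks numbered 2 against 6 at CDH6, 6 against 11 at CDH2, 3 against 6 at CDH11 and 5 against 8 at CDH3. The epithelial over mesenchymal ratio of median peaks per 10000 bases was 1.82, 2.33 by covered bases and 1.54 to 1.92 with 1 gene left out. The promoter share was 30% in epithelial and 28.9% in mesenchymal genes within 1000 bases. With 1 gene left out it ran from 27.3% to 60% in the epithelial and from 25% to 50% in the mesenchymal genes, so the order of the groups rests on single genes. Median peak length with 1 gene left out was 862 to 991 bases in the epithelial and 382.5 to 539 bases in the mesenchymal genes; leaving out genes for peak length and for the density ratio was chosen after seeing the data.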

Other observations

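Relatives of VIM outside the comparisons above also had peaks. Of the type III filament genes other than VIM, GFAP, the filament of astrocytes, had its nearest peak 841 bases from the start (906 bases long), and PRPH, the filament of peripheral neurons, 1879 bases from it. The state of DES, the filament of muscle, was undetermined, since its strand was not known from the tables used here, and 2 peaks lay in its body.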
